A study of Mus musculus with 12 samples.

Results

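The genes described here are the 2999 listed for CD4 T cells of mouse spleen, of 3684 genes listed for either T cell type in the series. They are the union of 4 tables that the authors made for 4 comparisons: 87 genes for knockout against wild type under stress, 1898 for stress in knockout, 2413 for stress in wild type and 496 for knockout against wild type without stress. For each gene the quantity of interest was the difference of the stress change between genotypes: the log2 change with stress in S100a9-/- mice minus the log2 change with stress in wild-type mice. A negative difference means that stress moved the gene less upward, or more downward, in S100a9-/- mice.

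The 12 mice fell into 4 groups of 3. The KO stress mice were S100a9-/- on C57Bl6/J and went through repeated social defeat stress, and the KO control mice were S100a9-/- on C57Bl6/J without stress. The WT stress mice were C57Bl6/J after the same stress, and the WT control mice were C57Bl6/J without stress. Stress lasted 10 days and was followed by 1 day of behaviour testing, and spleen cells were taken on day 12. The knockout was present in the whole animal rather than in T cells alone, as far as the genotype label says, and the sources used here give neither the deleted part of the gene nor the age and sex of the mice. Whole spleen cells, with erythrocytes lysed, were made into single-cell libraries that read the 3' end of transcripts, and the cells called CD4 were averaged by the authors into 1 value per gene and mouse.

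Repeated social defeat is a stress model in which a mouse is exposed over and over to an aggressor. It is known to drive sympathetic and glucocorticoid signals to the bone marrow and spleen, with release of myeloid cells. S100a9 encodes a calcium-binding protein that pairs with S100a8 to form calprotectin, which neutrophils and monocytes hold in large amounts and release as an alarm signal. CD4 T cells leave the naive state when their receptor is engaged, lower genes of homing and quiescence such as Klf3, and gain effector genes, among them S100 genes, granzymes and chemokine receptors.

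Values are average expression on a scale of about 10000 per cell, and changes are differences of log2(value + 0.1), which understate the change of low genes. The listed genes summed to between 8120 and 8152 in KO stress mice, 7367 and 7437 in KO control mice, 8161 and 8225 in WT stress mice and 7503 and 7562 in WT control mice. The sum was thus higher under stress in both genotypes. Numbers of cells and of reads per mouse are unknown, so no counting interval can be given, and their number limits the precision of low genes. The label was checked against 2 markers. Cd4, the coreceptor that defines the cells, lay between 1.66 and 3.01 in the 12 mice, and Cd3d, a chain of the T cell receptor complex, lay between 7.25 and 10.7. Cd8a, the coreceptor of the other T cell lineage, averaged 0.143 over the 12 mice. Cd4 fell with stress by 0.35 in KO mice and by 0.64 in WT mice, with a difference of 0.28 ± 0.14 (adjusted p = 0.514, limma), and Cd3d rose in both, with a difference of -0.07 ± 0.10.

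S100a9, the targeted gene, is on chromosome 3 from 90692632 to 90695721 on the minus strand (mm10). Its level was 0.0294, 0.0230 and 0.0228 in the KO stress mice and 0.0493, 0.0418 and 0.0437 in the KO control mice. It was 0.111, 0.0595 and 0.106 in the WT stress mice and 0.00449, 0.0167 and 0.0119 in the WT control mice. Every library labelled KO thus held some S100a9 signal, above all WT controls and below all WT stress mice. Because reads come from the 3' end and the deleted part is not known, this level does not check the genotype label.

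The genotypes were set apart by another pair of genes. The mitochondrial gene mt-Nd3, a subunit of respiratory complex I, was at most 0.00857 in the 6 KO libraries and at least 0.993 in the 6 WT libraries. Gm28438, its nuclear copy, was at least 0.855 in the KO libraries and at most 0.00716 in the WT libraries. Reads of near-identical copies can be assigned to either, so the levels of this pair are uncertain.

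The start regions of 3 genes that the results turn on are shown, each from 250 bases before to 50 bases after the start of transcription, from RefSeq on GRCm38.p6. They were chosen because S100a9 is the targeted gene, S100a4 had the most negative difference of the 2999 genes, and Tmem176b shared the smallest adjusted p with S100a9. In the S100a9 window (chr3:90695672-90695971, minus strand) capitals mark a match to TTGCNNAA, the letters of the C/EBP motif, and in the S100a4 window (chr3:90603520-90603819, plus strand) a match to AGGTCA, the core site bound by many nuclear receptors. In the Tmem176b window (chr6:48841325-48841624, minus strand) capitals mark the 208 bases that also lie in the window of Tmem176a (chr6:48841233-48841532, plus strand).
S100a9: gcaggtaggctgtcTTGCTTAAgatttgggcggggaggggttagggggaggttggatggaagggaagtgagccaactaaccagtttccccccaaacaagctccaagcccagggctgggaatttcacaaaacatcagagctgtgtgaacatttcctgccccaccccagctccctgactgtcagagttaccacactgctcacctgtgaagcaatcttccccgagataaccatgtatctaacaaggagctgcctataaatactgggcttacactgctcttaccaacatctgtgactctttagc
S100a4: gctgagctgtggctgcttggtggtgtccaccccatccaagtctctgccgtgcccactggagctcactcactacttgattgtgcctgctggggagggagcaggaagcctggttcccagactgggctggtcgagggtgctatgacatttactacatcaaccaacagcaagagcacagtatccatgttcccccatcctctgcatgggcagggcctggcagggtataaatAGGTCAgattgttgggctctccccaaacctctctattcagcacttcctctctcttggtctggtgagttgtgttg
Tmem176b: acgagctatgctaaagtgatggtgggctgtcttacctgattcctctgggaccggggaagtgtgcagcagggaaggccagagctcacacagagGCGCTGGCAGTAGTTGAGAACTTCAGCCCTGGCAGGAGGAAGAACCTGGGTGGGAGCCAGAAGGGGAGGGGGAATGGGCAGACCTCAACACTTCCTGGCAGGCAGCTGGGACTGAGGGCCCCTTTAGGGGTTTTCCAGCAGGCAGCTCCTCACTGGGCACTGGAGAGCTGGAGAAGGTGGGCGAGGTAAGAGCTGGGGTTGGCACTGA
Both strands were searched. Of 32851 windows of the same length, 16.3% held AGGTCA and 10.8% held TTGCNNAA, so a match is common and is given as a description of the letters only. Neither motif was in the Tmem176b or the Tmem176a window. Tmem176a and Tmem176b are transcribed away from each other, and their annotated spans overlap by 578 bases.

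Stress moved many of the listed CD4 genes in each genotype. Of the 2999 genes, 2840 were listed by the authors for stress in either genotype, from these same mice. The counts, and the shares of all genes given here, therefore describe a selected set and not all genes of CD4 cells. In KO mice 382 genes rose (12.7% of 2999) and 871 fell (29%) at an adjusted p under 0.05 (limma, Benjamini-Hochberg over the 2999 genes). In WT mice 688 rose (22.9%) and 832 fell (27.7%). With each mouse centred on its median, 893 rose and 773 fell in KO mice and 982 rose and 805 fell in WT mice, so the split between rising and falling genes depends on the scaling. The median size of the stress change, regardless of sign, was 0.24 in KO mice and 0.31 in WT mice.

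Of the genes that passed the test in both genotypes, 1093 moved the same way and 3 the opposite way. Among the 306 that rose in both, the change was smaller in KO mice for 167, and among the 787 that fell in both it was smaller in KO mice for 525. A further 157 genes passed the test in KO mice alone and 424 in WT mice alone. These 2 counts compare thresholds, since none of these genes passed the test of the difference itself.

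For that difference, 0 genes were higher and 0 lower in KO mice at an adjusted p under 0.05 (limma), and the smallest adjusted p was 0.0686. At an unadjusted p under 0.05 there were 284 genes (9.47% of those tested), 206 of them lower (6.87%) and 78 higher (2.6%). Centring each mouse on its median turned this split into 132 lower and 188 higher, and moved the median difference over all genes to 0.03, against -0.05 without centring. Of the 2999 differences, 1739 (58.0%) were negative and 1260 positive. The interquartile range of the differences was -0.20 to 0.10, 148 genes were under -0.5 and 23 were over 0.5. The median standard error was 0.17. The 95% interval of the difference stayed within 0.5 of 0 for 1429 genes (47.6%) and within 1 for 2825 genes (94.2%), so for most genes a difference of more than 1 on the log2 scale lies outside the interval.

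**Figure D1:**
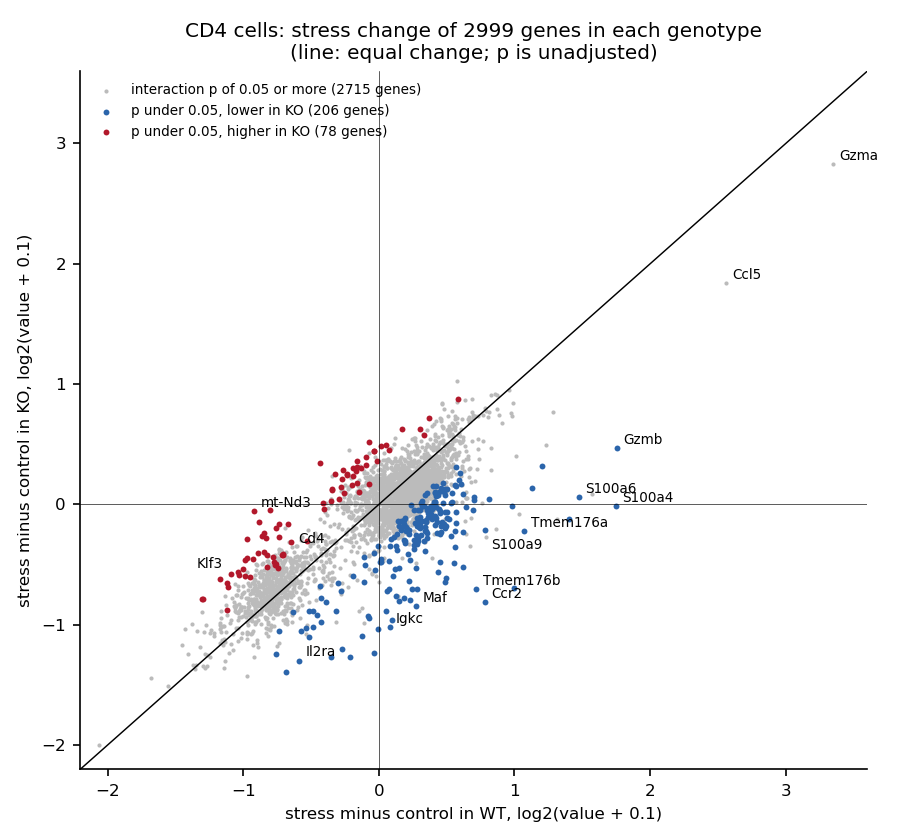
Stress change in KO mice (vertical axis) against stress change in WT mice (horizontal axis) for 2999 genes in CD4 cells, both as differences of log2(value + 0.1), with the line of equal change. Coloured points are the 206 genes lower and the 78 genes higher in KO mice at an unadjusted p under 0.05, and none passed the adjusted threshold.

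S100a9 had the smallest p. It is the targeted gene, so its difference cannot be told apart from the deletion itself. Its difference of stress change was -0.99 ± 0.17 (SE, 95% interval -1.35 to -0.64, adjusted p = 0.0686, limma, 3 mice per group). It rose with stress by 0.78 in WT mice (adjusted p = 4.98e-05), and its change in KO mice was -0.21 (adjusted p = 0.176). All 3 KO stress mice lay below all 3 KO controls, and all 3 WT stress mice lay above all 3 WT controls. The size depends on the added constant because the levels are low: it was -2.93 with 0.01 added (adjusted p = 0.0417) and -0.14 with 1 added (adjusted p = 0.11). S100a8, the partner of S100a9 in calprotectin, had a difference of -0.36 ± 0.28 (adjusted p = 0.632), with stress changes of 0.38 in KO mice and 0.74 in WT mice, of which the second passed the test.

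Tmem176b, a membrane protein of intracellular vesicles known in dendritic cells and T helper 17 cells, was 0.165, 0.159 and 0.0776 in KO stress mice and 0.281, 0.338 and 0.215 in KO control mice. It was 0.212, 0.171 and 0.232 in WT stress mice and 0.109, 0.102 and 0.0492 in WT control mice. KO stress mice were all below KO controls, while WT stress mice were all above WT controls. Tmem176b fell by 0.70 with stress in KO mice (adjusted p = 0.00423) and rose by 0.72 in WT mice (adjusted p = 0.00316), and the difference was -1.42 ± 0.25 (95% interval -1.96 to -0.88, adjusted p = 0.0686, limma). Its divergent neighbour Tmem176a, a related protein, had a difference of -1.29 ± 0.28 (adjusted p = 0.188), with a change of -0.22 in KO mice that did not pass the test and a rise of 1.07 in WT mice that did. The annotated spans of this pair overlap where both genes start, whereas the libraries read the 3' end of transcripts. Whether the values of the pair are independent was not tested.

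The other 2 genes that passed the stress test in opposite directions were Ccnd3, a D-type cyclin of the cell cycle, and Serpinb1a, an inhibitor of neutrophil serine proteases. Ccnd3 changed by -0.25 in KO mice and 0.22 in WT mice, a difference of -0.47 ± 0.12 (adjusted p = 0.303, limma). Serpinb1a changed by -0.48 in KO mice and 0.45 in WT mice, a difference of -0.93 ± 0.21 (adjusted p = 0.217, limma).

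Counting only by separation of the groups, 13 genes had every WT stress mouse above every WT control and every KO stress mouse below every KO control: Adam8, Ctsz, Cyb5b, Erg28, Jaml, Mus81, S100a9, Scrn2, Serpinb1a, Stx11, Tmem176b, Uck1 and Ybx1. The reverse pattern was seen for 4 genes, B4galt7, Bdh1, D830025C05Rik and Egln1. Separation in the same direction in both genotypes was far more common, upward in 378 genes and downward in 789. Opposite separation was thus rare among the 2999 genes, of which 0% passed the adjusted test of the difference. With 3 mice per group such separation can also arise by chance. The counts of 13 and 4 were not compared with the number that chance would give.

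**Figure D2:**
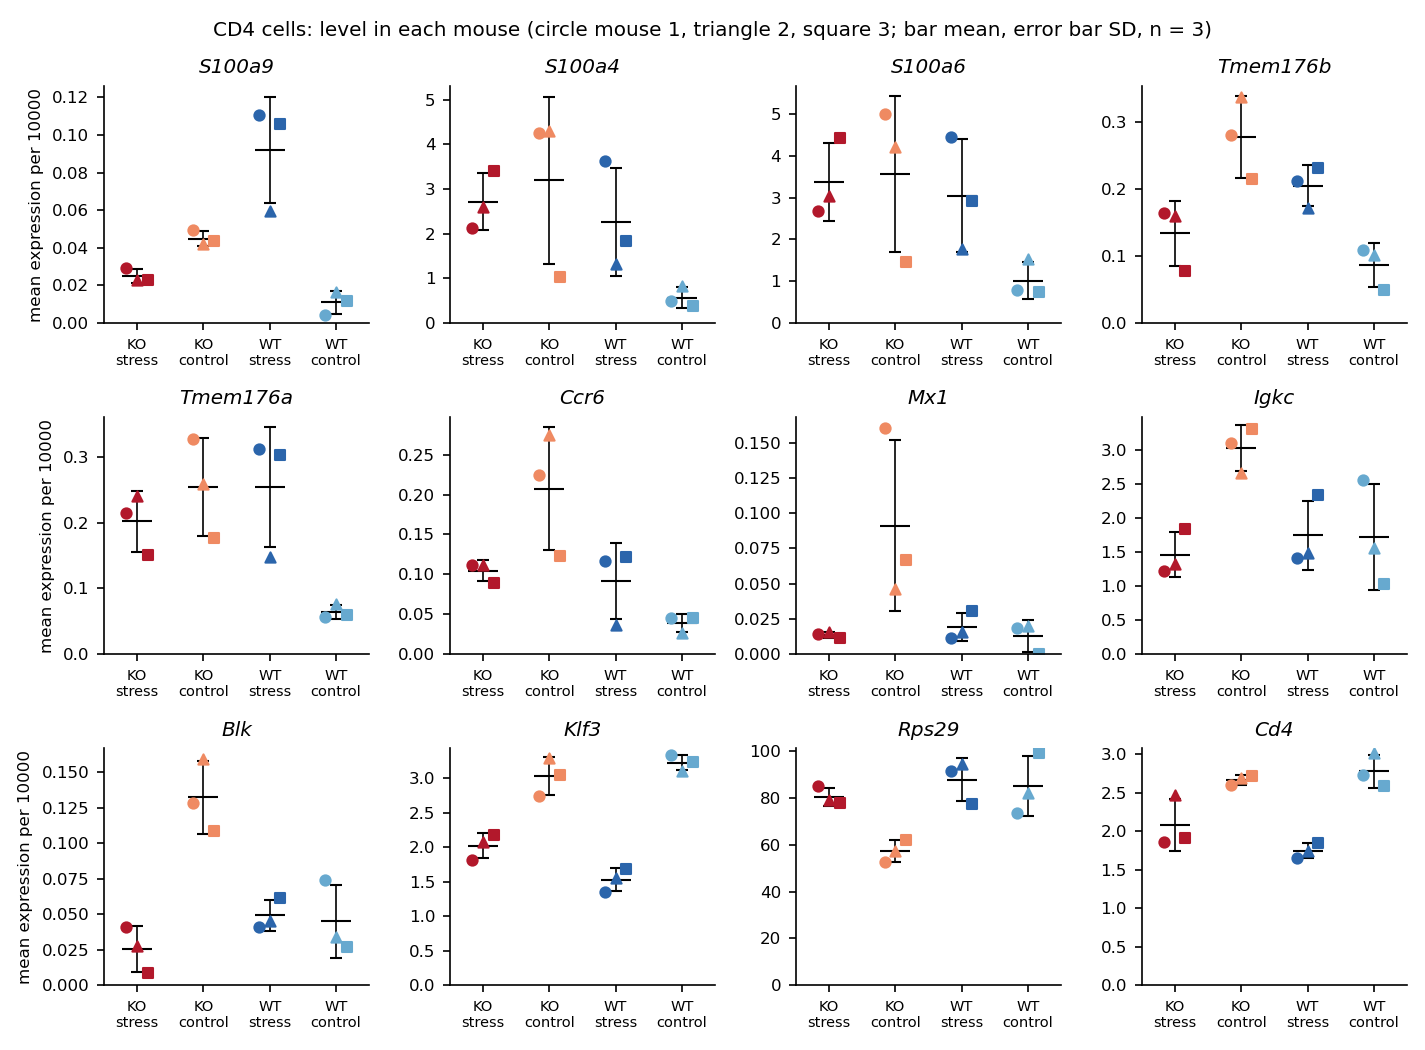
Level of 12 genes in CD4 cells of each mouse, as average expression on a scale of about 10000 (vertical axes start at 0), with the mean and SD of 3 mice per group. S100a9 is highest in WT stress mice, S100a4 and S100a6 are high in KO controls 1 and 2 but not in KO control 3, and Igkc and Blk are highest in KO controls.

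The S100 genes and galectin 1 are calcium-binding proteins and a lectin, several of which mark activated and memory T cells. Of the 9 in the list, 8 were listed in CD4 cells. S100a8 and S100a9 are among the 8 and belong to the neutrophil list as well. All 8 had a negative difference (58.0% of all genes), with a median of -0.88 against -0.05 over all genes. Of the 8, 5 had an unadjusted p under 0.05 (6.87% of all genes in this direction). S100a9, the targeted gene, is among the 8 and among the 5. All 8 rose with stress in WT mice (22.9% of all genes) and 1 rose in KO mice (12.7% of all genes), S100a13. S100a4, known for its part in cell motility, had the most negative difference of all genes. It was 2.13, 2.61 and 3.40 in KO stress mice and 4.25, 4.31 and 1.04 in KO control mice. In WT stress mice it was 3.63, 1.31 and 1.84, and in WT control mice 0.502, 0.822 and 0.384. KO controls 1 and 2 were above every stressed mouse of either genotype, KO control 3 was near the WT controls, and the KO groups overlapped. The difference was -1.76 ± 0.61 (95% interval -3.07 to -0.46, adjusted p = 0.392, limma), from a change of -0.01 in KO mice and a rise of 1.75 in WT mice. S100a6, a small S100 protein of dividing and activated cells, had a difference of -1.42 ± 0.55, and S100a11 and galectin 1 (Lgals1) had -0.77 ± 0.31 and -0.99 ± 0.42.

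The summed level of the 8 genes was 19.1, 20.6 and 27.2 in KO stress mice and 29.0, 25.2 and 11.9 in KO control mice. It was 26.3, 14.8 and 22.2 in WT stress mice and 9.90, 11.9 and 9.30 in WT control mice. The stressed mice of both genotypes thus covered a similar range, KO controls 1 and 2 were at or near its top, and KO control 3 sat with the WT controls. Read between genotypes, the median KO minus WT difference of the list was 0.05 under stress and 0.76 without stress.

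Neighbours of the targeted gene were examined as well. Within 5 Mb of S100a9 on chromosome 3 there were 47 listed genes. Of these, 8 were S100 genes, S100a9 included, with a median difference of -0.66. The other 39 had a median of 0.01, and the highest was 0.35 for the ribosomal gene Rps27. Of these 39, 2 had an unadjusted p under 0.05, against 9.47% of all genes. They were Rps27 and a gene with a negative difference, further from 0 than that of Rps27.

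Genes of the T helper 17 type, which mark the lineage that makes interleukin 17, gave a like pattern. Of 12 genes in the list 7 were listed, all with a negative difference (58.0% of all genes). An unadjusted p under 0.05 (limma) was found for 6 of them, against 6.87% of all genes in this direction. Their median was -0.86, and -0.56 without KO control 1. Most of these genes were low, and 1 remained with the lowest 25% left out. The median was -2.25 with 0.01 added and -0.20 with 1 added. With stress 3 of the 7 fell in KO mice (Tmem176b, Ccr6 and Rora), against 29% of all genes, and 2 rose in WT mice (Tmem176a and Tmem176b), against 22.9%. Both counts are near the share of all genes. Ccr6, the receptor for the chemokine CCL20, was 0.112, 0.112 and 0.0890 in KO stress mice and 0.225, 0.274 and 0.123 in KO control mice, against 0.116, 0.0370 and 0.122 in WT stress mice and 0.0450, 0.0263 and 0.0458 in WT control mice. All KO controls were above all KO stress mice, whereas the WT groups overlapped through WT stress mouse 2. The difference of Ccr6 was -0.99 ± 0.27 (adjusted p = 0.32, limma).

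Ltb4r1, a leukotriene B4 receptor, had -0.86 ± 0.36, and Il1r1, the interleukin 1 receptor, had -0.47 ± 0.20 and was listed at 0 in all WT controls. The summed level of the 7 genes was 0.819, 0.882 and 0.770 in KO stress mice and 2.26, 1.95 and 0.878 in KO control mice, against 1.21, 0.650 and 1.04 in WT stress mice and 0.679, 0.627 and 0.471 in WT control mice. KO controls 1 and 2 were the highest of the 12 mice.

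Of the activated, effector and memory list, 35 of 42 genes were listed, 33 with a negative difference (median -0.52). Of these, 6 had an unadjusted p under 0.05. Over all genes 58.0% were negative and 6.87% had such a p in this direction. With stress, 3 of the 35 rose and 6 fell in KO mice, against 12.7% and 29% of all genes, and 14 rose and 3 fell in WT mice, against 22.9% and 27.7%. The members with the largest stress changes rose in both genotypes. Gzma, a granzyme of cytotoxic cells, was 1.02, 1.18 and 3.27 in KO stress mice and 0.140, 0.0914 and 0.194 in KO control mice, against 2.22, 0.616 and 2.66 in WT stress mice and 0.137, 0.0123 and 0.0638 in WT control mice. It rose by 2.83 in KO mice and 3.35 in WT mice, with no overlap of stress and control mice in either genotype, and the difference was -0.52 ± 0.64 (95% interval -1.89 to 0.85, limma). Ccl5, a chemokine of memory T cells, rose by 1.84 in KO mice and 2.56 in WT mice, with a difference of -0.72 ± 0.61. For both genes the interval includes 0 and spans more than 2 units of log2, so no difference was detected and neither sign is excluded.

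Other members of the list differed more between the genotypes. Gzmb, another granzyme, had a change of 0.47 in KO mice that did not pass the test and a rise of 1.76 in WT mice, with a difference of -1.29 ± 0.57. Maf, a transcription factor of effector and regulatory CD4 cells, fell by 0.85 in KO mice and had a change of 0.27 in WT mice that did not pass, with a difference of -1.12 ± 0.39. Ccr2, a chemokine receptor of effector T cells and monocytes, had -1.59 ± 0.57 from changes of -0.81 in KO mice and 0.78 in WT mice, neither of which passed the test. Il2rb, the shared beta chain of the interleukin 2 and 15 receptors, fell by 0.41 in KO mice and had a difference of -0.63 ± 0.22. Of the 35 listed genes, 34 were higher in KO controls than in WT controls on average, against 1985 of all 2999 genes. The test was passed by 3 of them (2.23% of all genes).

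Il2ra, the high-affinity chain of the interleukin 2 receptor and a gene of regulatory T cells, was 0.274, 0.325 and 0.170 in KO stress mice and 0.812, 0.860 and 0.630 in KO control mice. It was 0.294, 0.253 and 0.291 in WT stress mice and 0.537, 0.411 and 0.466 in WT control mice. Stressed mice of both genotypes had similar levels, and every KO control was above every WT control. Il2ra fell by 1.30 in KO mice and by 0.59 in WT mice, a difference of -0.71 ± 0.22 (adjusted p = 0.392, limma). All 6 listed genes of the regulatory T cell list had a negative difference, against 58.0% of all genes. The median of the 6 was -0.58, and it was -0.33 without KO control 1 and -0.38 without WT stress mouse 1. All 5 of the T follicular helper list were negative as well (58.0% of all genes), none with an unadjusted p under 0.05. Without KO stress mouse 1, 60% of the 5 were negative.

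Naive and quiescent genes went the other way. Of 13 listed, 11 had a positive difference, against 1260 of all 2999 genes. The median was 0.21, and 0.13 without either KO control 1 or WT stress mouse 1. With stress 11 fell in KO mice (29% of all genes) and 11 in WT mice (27.7%). Klf3, a transcription factor that keeps lymphocytes quiescent, was 1.82, 2.07 and 2.17 in KO stress mice and 2.74, 3.30 and 3.04 in KO control mice, against 1.34, 1.56 and 1.68 in WT stress mice and 3.33, 3.11 and 3.24 in WT control mice. The KO stress mice were all above the WT stress mice, whereas the controls overlapped. Klf3 fell by 0.56 in KO mice and by 1.04 in WT mice, a difference of 0.48 ± 0.13 (adjusted p = 0.32, limma). S1pr1, the receptor that lets T cells leave lymphoid organs, had 0.33 ± 0.13, and Tcf7, a transcription factor of naive and memory T cells, had 0.29 ± 0.14. Dapl1 and Klf2 are in the list as well, and Klf2, a regulator of S1pr1, rose in both genotypes (0.25 in KO mice and 0.34 in WT mice).

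Genes of chromatin regulation fell with stress in both genotypes. Of 40 listed histone and DNA modifiers 35 fell in KO mice (29% of all genes) and 35 in WT mice (27.7%). A positive difference was found for 30 of the 40, against 1260 of all 2999 genes. The median was 0.10, or 0.18 with centring. Kdm6b, a demethylase of histone H3, fell by 0.44 in KO mice and by 0.97 in WT mice, with a difference of 0.53 ± 0.15 (adjusted p = 0.336, limma). Of 15 T cell receptor signalling genes, 13 fell in KO mice (29% of all genes) and 12 in WT mice (27.7%). Uvrag, a factor of autophagy, fell by 0.98 in WT mice and changed by -0.29 in KO mice without passing the test, with a difference of 0.69 ± 0.17. Msl2, a subunit of a histone acetyltransferase complex, and Abcg1, a cholesterol transporter, each had a difference of 0.55, with standard errors of 0.16 and 0.15. Prpf4b, a kinase of the spliceosome, fell by 0.41 in KO mice and by 0.71 in WT mice, with 0.30 ± 0.10. Cd40lg, the ligand through which helper T cells activate B cells, had 0.55 ± 0.18 from changes of 0.29 in KO mice and -0.26 in WT mice, neither of which passed the test.

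Targets of the glucocorticoid receptor, through which corticosterone acts on T cells, were listed for 6 of 19 genes. Of the 6, 5 had a positive difference, against 1260 of all 2999 genes. The median of the 6 was 0.22, but 0.02 without KO stress mouse 1, 0.14 without KO control 3 and 0.09 without WT stress mouse 3. Fkbp5, a chaperone of that receptor, rose by 0.52 in WT mice with a change of -0.12 in KO mice, a difference of -0.64 ± 0.27 (adjusted p = 0.472, limma). Cxcr4, the receptor that holds cells in the bone marrow, had 0.67 ± 0.36, and Tsc22d3, which encodes the leucine zipper protein GILZ, had 0.21 ± 0.34.

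Among the genes with the smallest p for a negative difference, several rose in WT mice and did not pass the test in KO mice. Bri3, a small membrane protein of the endolysosome, was 0.853, 0.933 and 0.922 in KO stress mice and 0.877, 0.938 and 0.942 in KO control mice, against 1.15, 0.926 and 1.04 in WT stress mice and 0.671, 0.692 and 0.527 in WT control mice. The KO groups overlapped and the WT groups did not. Bri3 rose by 0.64 in WT mice, its change in KO mice was -0.02, and the difference was -0.67 ± 0.15 (adjusted p = 0.208, limma). Esd, an esterase, rose by 0.62 in WT mice with a change of 0.08 in KO mice, a difference of -0.54 ± 0.13. Glrx, a glutaredoxin that reduces protein thiols, had -1.14 ± 0.34, Pkp3, a plakophilin of cell junctions, had -0.74 ± 0.21, and Bola1, a mitochondrial iron-sulfur cluster factor, had -0.52 ± 0.16. Pou2f2, a transcription factor of B cells and activated T cells, and Hcls1, an actin regulator of blood cells, fell in KO mice by 1.03 and 0.48, with differences of -0.49 ± 0.14 and -0.49 ± 0.15.

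**Figure D3:**
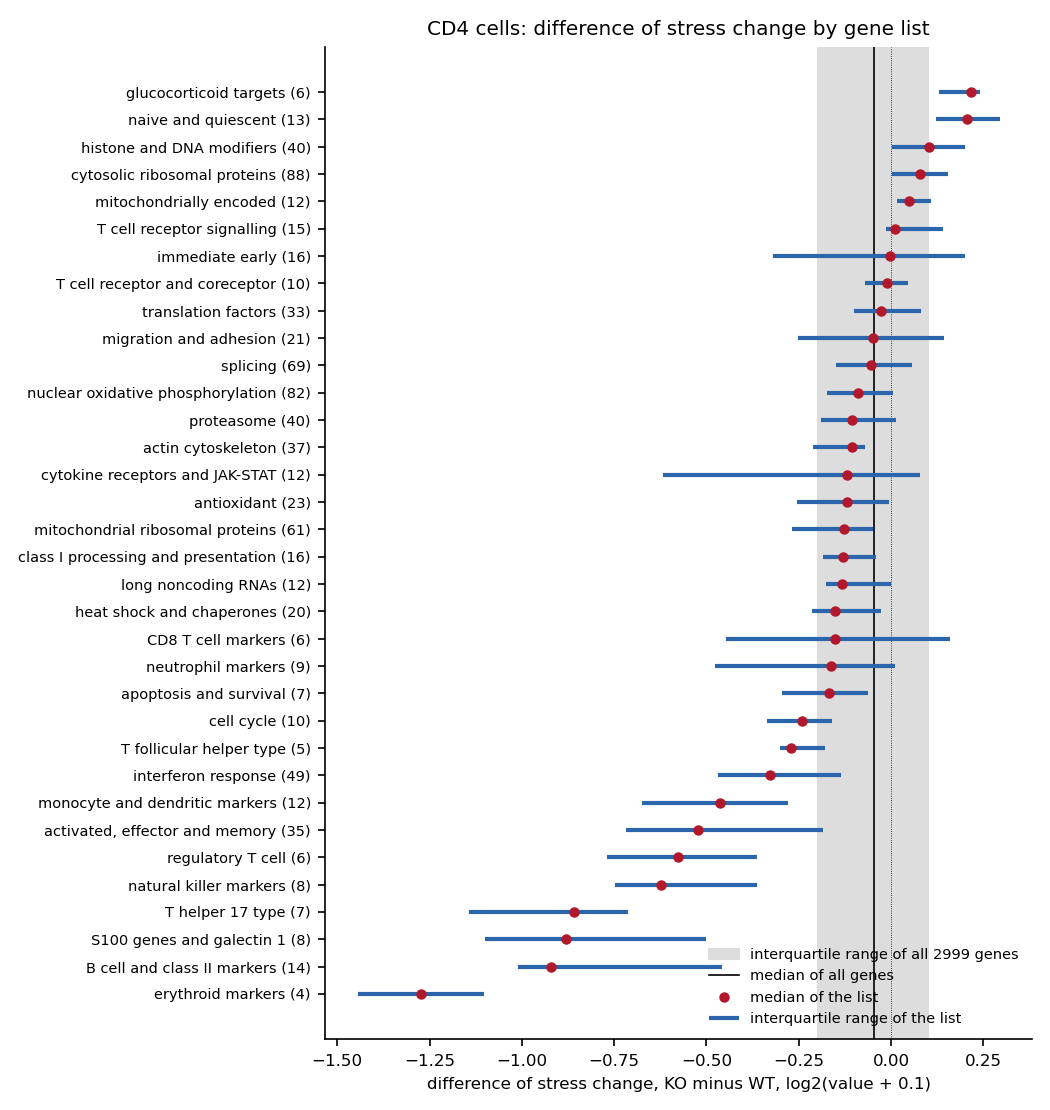
Median difference of stress change, KO minus WT, on the log2(value + 0.1) scale for each gene list (points), with the interquartile range of its members (bars) and the number listed in brackets. The shaded band is the interquartile range of all 2999 genes, -0.20 to 0.10. Whole bars lie left of the band for the S100, T helper 17, regulatory T cell, B cell, monocyte and dendritic, erythroid and natural killer lists.

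Interferon response genes, which cells switch on when type I or type II interferon binds its receptor, numbered 49 of 95 listed. A negative difference was found for 45 of them, 9 with an unadjusted p under 0.05, against 58.0% and 6.87% of all genes. Their median was -0.33, but -0.13 without KO control 1, when 71.4% of them were negative. With stress 20 fell and 0 rose in KO mice (limma, adjusted p under 0.05), against 29% and 12.7% of all genes. In WT mice 13 fell and 8 rose, against 27.7% and 22.9%, which is near the share of all genes. Mx1, an antiviral GTPase, was 0.0140, 0.0154 and 0.0112 in KO stress mice and 0.160, 0.0464 and 0.0665 in KO control mice, against 0.0111, 0.0156 and 0.0302 in WT stress mice and 0.0187, 0.0201 and 0 in WT control mice. The KO controls were above all the other mice, by the widest margin in KO control 1. Mx1 fell by 0.71 in KO mice, and the difference was -0.78 ± 0.24 (adjusted p = 0.392, limma).

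Ly6e, an abundant interferon-induced surface protein, had a difference of -0.33 ± 0.11, with changes of -0.18 in KO mice and 0.15 in WT mice that did not pass the test. The summed level of the 49 genes was 84.0, 71.9 and 77.4 in KO stress mice and 121, 89.4 and 79.7 in KO control mice, against 70.7, 66.7 and 67.7 in WT stress mice and 71.2, 70.4 and 71.3 in WT control mice. KO control 1 stood above all others. Without stress 48 of the 49 genes were higher in KO mice on average, against 1985 of all 2999 genes. Of the 49, 8 were higher past the test (2.23% of all genes) and 1 was lower past it (1%). Under stress 40 of the 49 were higher on average, against 1683 of all 2999 genes. The exception without stress was Ifi208, an interferon-inducible gene that was lower in KO mice under stress as well.

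Cytosolic ribosomal proteins, which build the ribosome, rose with stress in both genotypes. In KO mice 81 of 88 rose (12.7% of all genes). In WT mice 77 rose (22.9% of all genes) and 3 fell (27.7%). A positive difference was found for 67 of 88, against 1260 of all 2999 genes. The median was 0.08, but 0.04 without WT control 3, 0.05 without WT stress mouse 3 and 0.15 with centring. Rps29, a protein of the small subunit, was 85.0, 79.1 and 77.7 in KO stress mice and 52.6, 57.2 and 61.9 in KO control mice, against 91.7, 94.3 and 77.3 in WT stress mice and 73.8, 82.2 and 99.1 in WT control mice. The KO controls were the 3 lowest of the 12 mice, and the WT groups overlapped. Rps29 rose by 0.49 in KO mice and its change in WT mice was 0.05, a difference of 0.44 ± 0.14 (adjusted p = 0.392, limma). Rpl38, a protein of the large subunit, had 0.46 ± 0.14. Without stress 17 of the 88 were lower in KO mice past the test (1% of all genes), and 0 were higher (2.23%). Nuclear genes of oxidative phosphorylation, the energy-producing chain of mitochondria, rose with stress for 39 of 82 in KO mice and 53 of 82 in WT mice. Of all genes 12.7% and 22.9% rose. Their median difference was -0.09, but -0.06 without KO control 1 and -0.14 without KO control 3.

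Markers of other cell types moved with the groups. B cell and class II genes, which mark B cells and antigen-presenting cells, were listed for 14 of 36 genes, and Cd79a was not among the 2999. Of the 14, 12 had a negative difference (median -0.92), 8 with an unadjusted p under 0.05, against 58.0% and 6.87% of all genes. With stress 13 fell in KO mice and 2 in WT mice, against 29% and 27.7% of all genes. Igkc, the immunoglobulin kappa constant region, was 1.22, 1.32 and 1.84 in KO stress mice and 3.11, 2.65 and 3.31 in KO control mice, against 1.42, 1.49 and 2.33 in WT stress mice and 2.56, 1.55 and 1.03 in WT control mice. The KO controls were above all other mice. Igkc fell by 1.02 in KO mice with a change of 0.08 in WT mice, and the difference was -1.10 ± 0.35 (adjusted p = 0.392, limma).

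Blk, a kinase of the B cell receptor, had a difference of -0.94 ± 0.20 (adjusted p = 0.188, limma), and Bank1, a B cell scaffold protein, had -1.06 ± 0.29. The summed level of the 14 genes was 6.82, 7.81 and 8.52 in KO stress mice and 12.7, 12.8 and 17.6 in KO control mice, against 8.17, 8.44 and 11.3 in WT stress mice and 14.6, 10.0 and 8.10 in WT control mice. KO control 3, which was below KO controls 1 and 2 for S100 and T helper 17 genes, was the highest here. The part of these markers in the results above was not tested.

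Monocyte and dendritic markers were listed for 12 of 30 genes, all with a negative difference, against 58.0% of all genes. Their median was -0.46, and -0.29 without KO control 1. Cst3, a protease inhibitor abundant in these cells, had -0.64 ± 0.15 (adjusted p = 0.223, limma). Their sum was 6.52, 5.65 and 6.73 in KO stress mice and 8.27, 6.16 and 4.80 in KO control mice, against 6.04, 4.81 and 6.05 in WT stress mice and 3.62, 3.92 and 3.72 in WT control mice. Lyz2, the lysozyme of myeloid cells, had -1.11 ± 0.31. Of 9 listed neutrophil markers 6 had a negative difference (median -0.16), which is near the 58.0% of all genes. This depended on the added constant, because most were low and 1 remained with the lowest 25% left out. With 0.01 added, 88.9% of the 9 were negative and the median was -0.78. Their sum lay between 0.968 and 1.20 in KO stress mice and 0.698 and 1.16 in KO control mice. It lay between 0.677 and 1.04 in WT stress mice and 0.413 and 0.50 in WT control mice. The WT controls were lowest for both lists. Their part in the S100 and effector results was not tested.

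Globin genes of red cells stood out in size and in spread. The 4 listed had a median difference of -1.27, none with an unadjusted p under 0.05. The median was -0.82 without KO control 1, -2.04 without KO control 3 and -0.71 without WT stress mouse 3. All 4 were higher in KO controls than in WT controls past the test (2.23% of all genes). Their sum was 5.08, 1.74 and 1.70 in KO stress mice and 5.52, 4.06 and 0.627 in KO control mice, against 0.732, 0.197 and 2.36 in WT stress mice and 0.141, 0.0917 and 0.0891 in WT control mice. The same KO control mice, 1 and 2, were above KO control 3 for globin, S100 and T helper 17 genes, and the part of globin RNA in the other results was not tested. Natural killer markers, which share granzymes and Ccl5 with effector T cells, summed to between 14.7 and 41.3 in KO stress mice, 4.78 and 8.60 in KO control mice, 9.60 and 29.2 in WT stress mice and 3.05 and 4.94 in WT control mice. In each genotype the stressed mice lay above the controls.

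**Figure D4:**
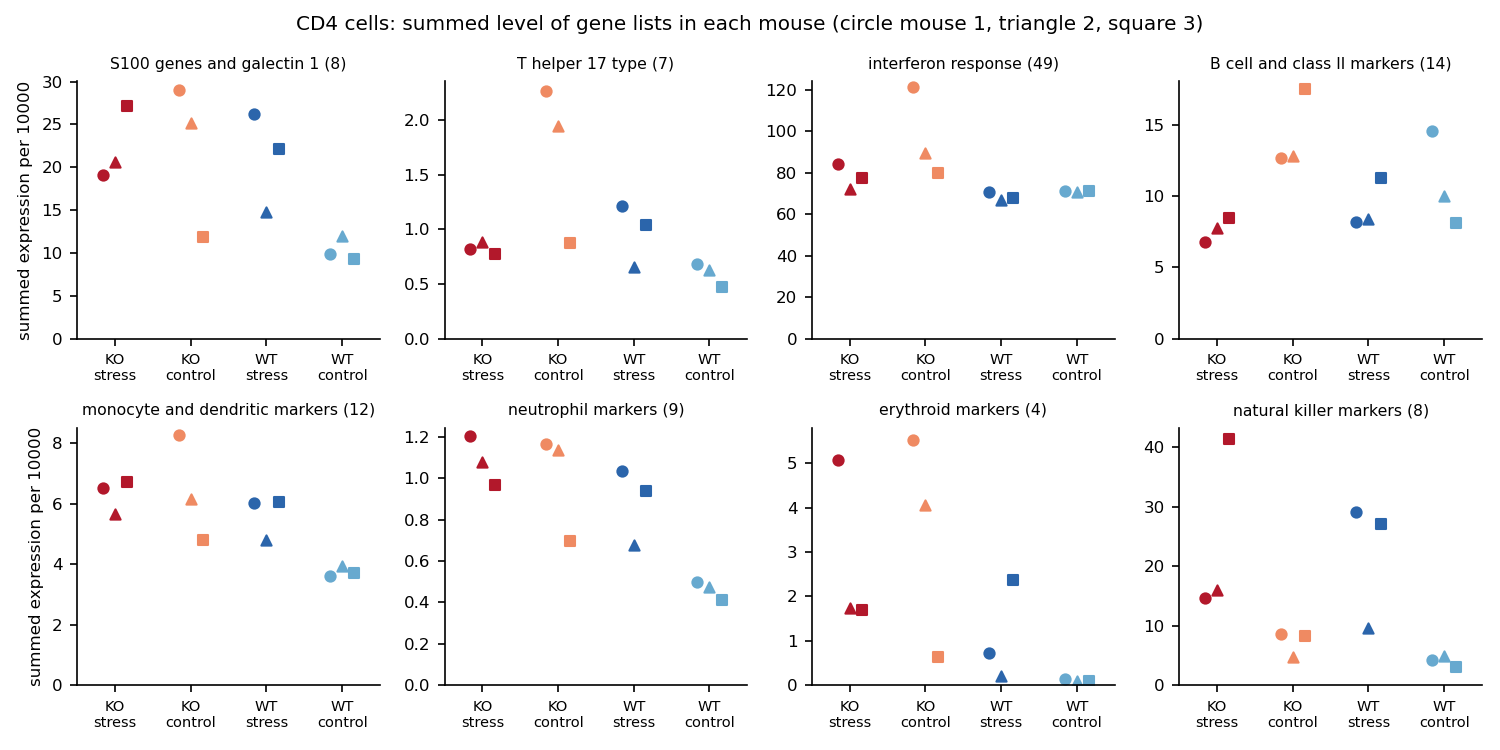
Summed average expression of 8 gene lists in CD4 cells of each mouse, with mouse 1, 2 and 3 of each group as circle, triangle and square and the number of listed genes in brackets. KO controls 1 and 2 are above KO control 3 for the S100, T helper 17, neutrophil and erythroid lists, while KO control 3 is highest for B cell and class II markers.

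The genotypes were also compared within each condition. Without stress 97 genes differed between KO and WT mice past the test, 67 higher (2.23%) and 30 lower (1%), and under stress 3 did, 1 higher (0.0333%) and 2 lower (0.0667%). The count of 97 rests on single mice: it was 9 without KO control 1, 25 without KO control 2, 189 without KO control 3, 57 without WT control 1, 13 without WT control 2 and 11 without WT control 3. The count under stress was 3 to 5 without each mouse. With centring the split without stress became 30 higher and 45 lower. The 3 under stress were Gm28438, which was higher in KO mice, and mt-Nd3 and Ifi208, which were lower. The 206 genes lower at an unadjusted p under 0.05 had a median KO minus WT difference of -0.13 under stress and 0.36 without stress. For the 78 higher genes the medians were 0.26 under stress and -0.15 without stress. These medians describe genes picked by their difference and support nothing further. The 496 genes that the authors listed for KO against WT without stress had a median difference of stress change of -0.14, 69.2% of them negative, and the other 2503 genes had -0.03, with 55.8% negative. That table and the difference share their control mice. Leaving out ribosomal and mitochondrial genes, the longest annotated transcript had a median of 2089 bases for 190 protein-coding genes lower at an unadjusted p under 0.05, 3997 bases for 55 higher ones and 2443 bases for 2475 in all.

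mt-Nd3 also gave the most positive difference of the 2999 genes, 0.86 ± 0.20 (adjusted p = 0.223, limma). Its change in KO mice was -0.05 from levels far below the added 0.1, while it fell by 0.92 in WT mice. The value therefore rests on the WT mice.

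**Figure D5:**
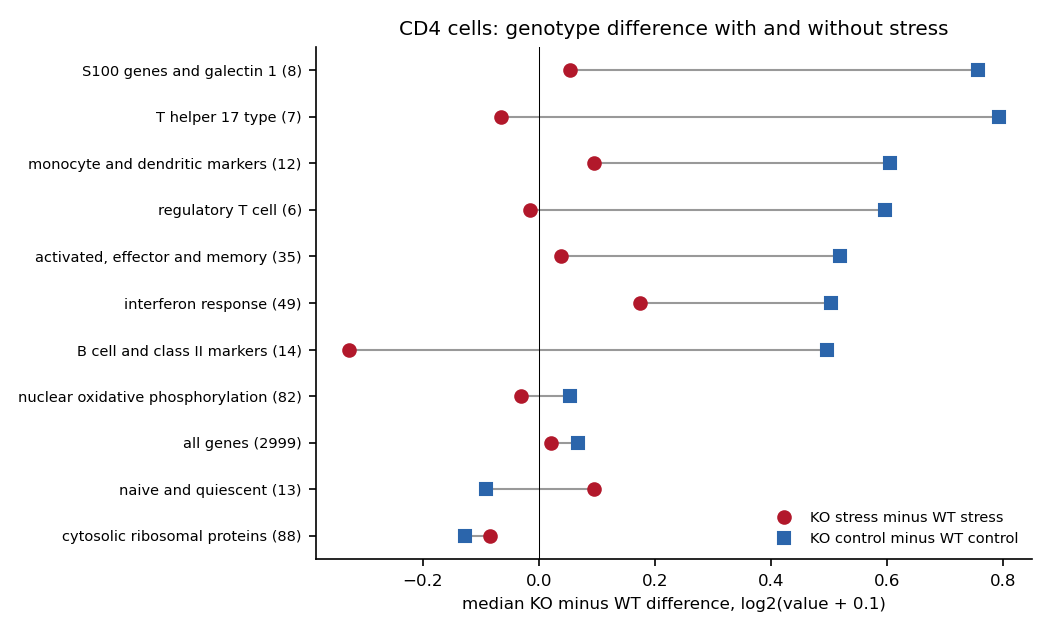
Median KO minus WT difference, log2(value + 0.1), under stress (circles) and without stress (squares) for 10 gene lists and all 2999 genes, with the number of genes in brackets. The S100 list lies at 0.05 under stress and 0.76 without stress, and all genes at 0.02 and 0.07.

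The count of 0 depended on KO control 3 and WT stress mouse 2. Without KO control 3, 17 genes were lower in KO mice at an adjusted p under 0.05 (limma, 2 KO controls) and 0 higher, among them Adam8, Blk, Ccr6, Cst3, Lgals1, Lyz2, Maf, S100a4, S100a9, Tmem176a and Tmem176b. Without that mouse S100a4 had a difference of -2.41 ± 0.42 and Lgals1 of -1.46 ± 0.27. Without WT stress mouse 2, S100a9 and Tmem176a passed (adjusted p = 0.0112 and 0.0206). Leaving out any of the other 10 mice gave 0 genes in either direction. Nothing in the labels marks either mouse as a failed library.

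CD8a cells of the same mice were used as another readout, although the averages come from the same libraries. There too 0 of 2851 genes passed for the difference of stress change (limma), with 204 at an unadjusted p under 0.05 (7.16%). The difference between the cell types, CD8a minus CD4 within each mouse, passed for 0 of 2166 genes in both, with 161 at an unadjusted p under 0.05 (7.43%). S100a9 had -0.63 ± 0.20 in CD8a cells. The 7 genes of the S100 list in both cell types, S100a9 included, had a median difference of -0.77 in CD4 cells and 0.00 in CD8a cells. Of these 7, 5 had an unadjusted p under 0.05 for the difference between cell types. S100a6 was at -1.42 ± 0.55 in CD4 cells against 0.07 ± 0.30 in CD8a cells (adjusted p of the difference = 0.612, limma). The 4 globin genes had a median of -1.27 in CD4 cells and 0.97 in CD8a cells. The 35 interferon genes in both had -0.29 in CD4 cells and -0.16 in CD8a cells.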

How the data were processed

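Spleen cells of 12 mice were profiled with the 10x Genomics 3' v2 kit, per the labels' protocols, and the submitters' processing notes name Cell Ranger 2.1.1 and mm10. The authors deposited a signal, the average expression per gene and mouse, for genes they selected for 4 comparisons per cell type, per the file headers. The selection rule, the assignment of cells to CD4 or CD8a, doublet treatment and cell numbers are not given in the sources here. A value for a gene was taken from any table that lists it. Depth is unknown, so no count model was fitted.

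Values were analysed as log2(value + 0.1) in limma 3.58.1 (R 4.3.3) with empirical Bayes moderation and a mean-variance trend, as 4 group means over all 12 mice. Two-sided p-values were adjusted (Benjamini-Hochberg) over all 2999 genes. Because the authors selected these genes from the same mice, the nominal share of false calls may not hold. Errors of differences are standard errors. On simulated data with independent noise the fit returned the mean size of planted differences. That simulation left out the authors' selection of genes, so it does not check the p-values given here. Positions come from GENCODE M21, which matched 97.5% of the symbols.

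Genes were named as the 10 smallest p in each direction with a mean at or above the 25th percentile (none passed the test), plus Cd4, Cd3d, S100a9 and S100a8. Other genes named in the text were chosen from the lists after their values were seen. Members and lists were chosen with earlier results of these data known. Mice with the same number in different groups are not said to be related, and nothing says whether they shared cages or days. Alternatives were another pseudocount, a filter on low values, centring, leaving out ribosomal and mitochondrial genes, no trend, sample weights, a replicate block and leaving out each mouse. Some genes are not reported here.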

Additional observations from a re-analysis of the deposited data

How the results depend on the processing

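The count of genes with a lower stress change in KO mice, 0, was 1 with a pseudocount of 0.01, 1 with no mean-variance trend, and 0 to 17 when each mouse was left out. No gene passed as higher under any of these alternatives. S100a9 was the gene passing with the small pseudocount and with no trend, and its difference ranged between -2.93 and -0.14 over the pseudocounts. For KO against WT without stress, 97 genes became 52 with the lowest 25% left out, 41 with ribosomal and mitochondrial genes left out, 41 with no trend, 276 with sample weights, 19 with only the groups compared, and 9 to 189 without each mouse. Under stress the count of 3 became 5 with no trend and 3 to 5 without each mouse. The difference of Cd3d, -0.07, turned positive at 0.0103 with centring, and ranged between -0.13 and 0.0134 without each mouse, positive without KO control 1. Causes were not tested, beyond the fewer genes or mice in some alternatives. Of 475 values of 24 named genes, 468 kept their direction and side of the threshold.

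Same-numbered mice did not deviate together: over 18 pairs the correlation lay between -0.20 and 0.23, 1 was over 0.1, and 3 mice matched their own number best. A replicate block left 0 genes for the CD4 difference and gave 1 in CD8a cells (Coro2a), as did leaving out KO stress mouse 2, so that the CD8a count ranged between 0 and 1 without each mouse. Low levels and 3 mice per group limit precision, and depth is unknown.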
